A study of Homo sapiens with 21 samples.

Results

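The basal difference between MV4-11 cells with a knockout of HK2 and wild type MV4-11 cells was read from 6 of the 21 libraries of the series, the 3 HK2 knockout and the 3 wild type libraries labelled as treated with DMSO. MV4-11 is an established line of human leukaemia with a rearranged KMT2A gene, labelled as biphenotypic between the B-lymphoid and the myelomonocytic lineage, and both genotypes were grown in RPMI-1640 with glutamine and foetal calf serum. DMSO is the solvent of ironomycin (AM5), the small molecule that the treated libraries of the series received. The labels give no time for DMSO, no edited site in HK2, and neither a clone nor a pool as the origin of the knockout cells. Beside these 6 libraries stand 3 PGP knockout libraries in DMSO, 3 wild type libraries at 24 h of ironomycin and 3 HK2 knockout libraries at 24 h of ironomycin, all of the same line.

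Hexokinases add a phosphate to glucose on its entry into the cell, and the product feeds glycolysis, the pentose phosphate pathway, glycogen and the hexosamine pathway. HK2 is the inducible, insulin-regulated isoform that is high in many tumours and, like HK1, can dock on the mitochondrial outer membrane through the channel protein VDAC1. HK1 is the widely expressed isoform, HK3 a myeloid isoform, and HKDC1 a further member of the family. Glucose 6-phosphate also governs the paired transcription factors MondoA (MLXIP) and MLX, which bind E-box sequences and whose best-known targets are the arrestin family members TXNIP and ARRDC4.

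The E-box core CACGTG was searched in the 250 bases before the RefSeq transcription start (build GRCh38.p14), because HK2 and ARRDC4 had the lower values in the knockout that are described further on. It reads the same on both strands, and 6.34% of 35116 promoter windows of this length hold it. The window before the downstream start of HK2, chr2:74834920-74835169 on the plus strand, lies inside an intron of the longer HK2 transcript and holds the core 194 and 149 bases before that start. The window of ARRDC4, chr15:97960453-97960702 on the plus strand, holds it 210 bases before the start. Both are printed 5′ to 3′ with the core in capitals.
HK2: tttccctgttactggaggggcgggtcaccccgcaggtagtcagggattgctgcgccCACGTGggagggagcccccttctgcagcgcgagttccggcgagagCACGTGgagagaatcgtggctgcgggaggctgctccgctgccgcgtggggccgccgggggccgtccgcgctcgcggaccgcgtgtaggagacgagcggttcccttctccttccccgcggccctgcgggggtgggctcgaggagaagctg
ARRDC4: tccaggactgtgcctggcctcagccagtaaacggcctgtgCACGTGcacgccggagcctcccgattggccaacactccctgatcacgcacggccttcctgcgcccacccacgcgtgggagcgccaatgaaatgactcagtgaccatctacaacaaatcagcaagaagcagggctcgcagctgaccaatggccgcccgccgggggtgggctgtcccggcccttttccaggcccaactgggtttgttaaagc
The upstream HK2 window (chr2:74833877-74834126, plus strand) does not hold these letters, nor do the 2 windows of TXNIP (chr1:145996580-145996829 and chr1:145995745-145995994, minus strand) or those of OFD1 (chrX:13734498-13734747, plus strand), VAT1L (chr16:77788314-77788563, plus strand) and FGL2 (chr7:77199820-77200069, minus strand), 3 of the 4 genes called below. A match of letters describes the window and does not show that a factor binds there. Only this exact string was searched, so a window without it is not shown to lack a site for MondoA and MLX.

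The 6 libraries held 4541088 to 6069264 counts of transcript ends (median 5071844), so that 3 counts, the upper limit that a count of 0 allows, stood for 0.494 to 0.661 CPM, the unit of counts scaled by the size of each library. Such limits cover counting error only. Levels are CPM on TMM library sizes and are given per library in the order of replicates 1, 2 and 3, with mean ± SD where one is printed (n = 3). Differences are log2 fold changes ± SE of the knockout minus wild type, and a gene was called where its p in edgeR's quasi-likelihood test, after Benjamini-Hochberg adjustment across the 11610 genes that entered the fit, was under 0.05. Nothing in the labels ties the replicates to separate cultures, and the p-values therefore speak of the spread among libraries, which may be technical. The 6 libraries lay close together: across genes, a library deviated from its group's other libraries with an SD of 0.332 to 0.388 (log2), against 0.350 to 0.675 in the other 15 libraries, and no 2 libraries held identical counts. Markers of both labelled lineages were found in part. Of 31 myelomonocytic genes 21 averaged at least 1 CPM and 7 were at 0 in all 6 libraries. CD33 stood at 81.9 ± 0.878 CPM in wild type, and CD68 and CD163 at 0. Of 21 B-lymphoid genes 4 averaged at least 1 CPM, with TCF3 and IGLL1 the most abundant of those tested. A further 8, MS4A1 and CD79B among them, were at 0. Whether a listed 0 means an absent transcript was not tested, and the strand setting of the counts is not given. The sums of both lists stand with the other marker lists at the end.

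The HK2 transcript was lower in the knockout without being lost. In wild type DMSO cells HK2 (ENSG00000159399) stood at 45.9, 42.4 and 69.5 CPM. In the knockout it stood at 24.8, 21.2 and 20.0 CPM. The groups did not overlap, wild type replicate 3 was the highest library, and the knockout mean was 41.8% of the wild type mean. The difference was -1.27 ± 0.28, which is not a call (edgeR adjusted p = 0.116). It passed the threshold in edgeR fits of the 2 groups alone (adjusted p = 0.00894) and of the 3 DMSO groups (0.00464). DESeq2 (0.0183) and replicate number as a block (0.0175) also gave a call, as did leaving out wild type 6 h replicate 2 (0.00505). That library had the largest deviation in the series. Leaving out any 1 of the 6 libraries moved the difference to between -1.40 and -1.01, and HK2 was then never a call (edgeR adjusted p from 0.0920 to 0.791). Nor was it a call with edgeR's robust (adjusted p = 0.334) or legacy (0.121) setting, or with RLE scaling (0.119). A 3′ tag that lies outside the edited part of a gene does not check a knockout, so these levels are no test of the genotype.

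HK1 was well detected, and HK3 and HKDC1 were not. HK1 (ENSG00000156515) stood at 41.3, 35.9 and 34.8 CPM in wild type and at 29.9, 28.0 and 29.2 CPM in the knockout. The groups again did not overlap (7.82% of all genes tested lay below wild type without overlap). Its difference was -0.36 ± 0.15, far from a call (edgeR adjusted p = 0.848). At 24 h of ironomycin the HK1 difference was -0.10 ± 0.15 (edgeR unadjusted p = 0.535). HK3 had 3 counts over the 3 wild type libraries and 4 over the 3 knockout libraries, and HKDC1 had 0 and 0, so changes of these 2 genes were not detectable at this depth. In the PGP knockout in DMSO HK2 stood at 45.2, 36.1 and 48.1 CPM and HK1 at 40.7, 44.4 and 41.7 CPM. PGP itself (ENSG00000184207), which encodes the phosphatase that clears phosphoglycolate and other side products of glycolysis, stood at 89.4, 86.8 and 95.5 CPM in wild type and at 95.8, 86.4 and 103 CPM in the HK2 knockout, a difference of 0.07 ± 0.12.

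**Figure D1:**
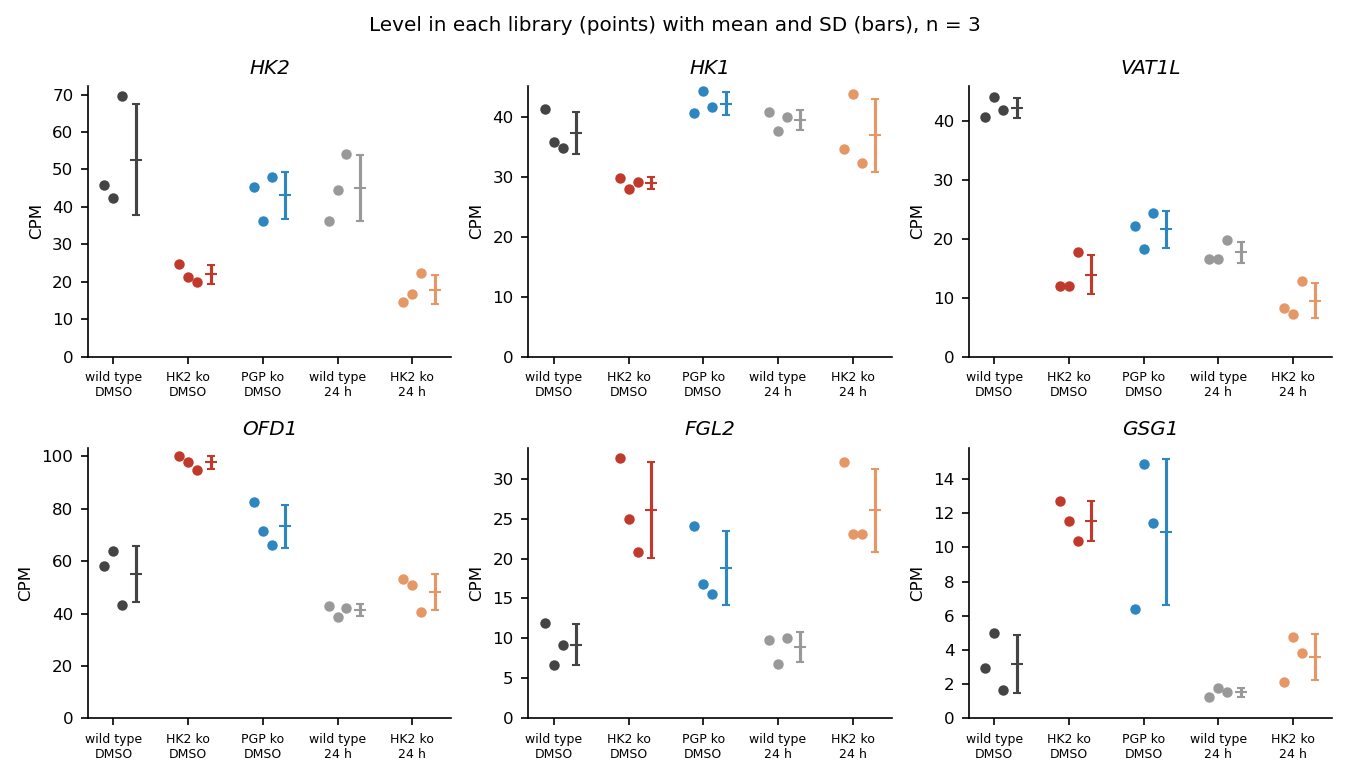
Levels (CPM, linear axes from 0) of HK2, HK1 and the 4 called genes in each library (points) of 5 groups, with the mean and SD of the 3 libraries beside them; ko is knockout and 24 h is ironomycin for 24 h. In DMSO the HK2 knockout and wild type points of each of the 6 genes do not overlap.

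In DMSO, 4 of the 11610 genes tested were called, which is 0.0345%: OFD1, GSG1 and FGL2 rose in the HK2 knockout and VAT1L fell. OFD1 (ENSG00000046651) encodes a protein of centrioles and the base of the primary cilium. It stood at 58.1, 63.9 and 43.1 CPM in wild type and at 100.2, 97.8 and 94.96 CPM in the knockout, where its mean was 178% of the wild type mean. The knockout libraries lay within a few CPM of each other, and the difference was 0.83 ± 0.14 (edgeR adjusted p = 0.0381).

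VAT1L (ENSG00000171724), which encodes a relative of the vesicle amine transport protein VAT1, was the called gene that fell. It stood at 40.7, 44.0 and 41.8 CPM in wild type and at 12.1, 12.1 and 17.7 CPM in the knockout, or 33.0% of the wild type mean. Its difference was -1.60 ± 0.29 (edgeR adjusted p = 0.0433). FGL2 (ENSG00000127951), a fibrinogen-like protein of monocytes and T cells, stood at 11.9, 6.68 and 9.12 CPM in wild type and at 32.6, 24.96 and 20.8 CPM in the knockout. All knockout libraries lay above all wild type libraries, with a difference of 1.49 ± 0.27 (edgeR adjusted p = 0.0433). GSG1 (ENSG00000111305), named for its expression in germ cells, was the least abundant of the 4, at 2.92, 5.01 and 1.66 CPM in wild type and 12.7, 11.5 and 10.4 CPM in the knockout. Its difference was 1.88 ± 0.34 (edgeR adjusted p = 0.0433), on 48 counts in wild type and 179 in the knockout.

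The number of calls depended on the libraries fitted. It was 0 on leaving out wild type replicate 1, wild type replicate 3, or any of the 3 knockout libraries, and 8 (0.0676% of the genes tested there) without wild type replicate 2, where OFD1 and GSG1 were still called (adjusted p = 0.0134 for both). All 4 genes were called in fits of the 2 groups alone (17 calls) and of the 3 DMSO groups (13 calls). DESeq2 (23 calls) and replicate number as a block (22 calls) kept all 4, as did leaving out wild type 6 h replicate 2 (12 calls). With edgeR's robust setting VAT1L was lost (adjusted p = 0.0648), and with its legacy setting GSG1 (0.0723), FGL2 (0.0575) and VAT1L (0.0575) were. On leaving out any 1 of the 6 libraries the difference of OFD1 stayed between 0.68 and 0.95, that of GSG1 between 1.53 and 2.35, that of FGL2 between 1.31 and 1.70 and that of VAT1L between -1.80 and -1.50.

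Most genes differed little between the genotypes. Of the genes tested 91.0% lay within 0.5 on either side of 0, and 191 (1.65%) had a fitted difference of at least 2-fold. The median difference was -0.01, but TMM scaling centres the differences near 0, so this median does not show likeness. An unadjusted p under 0.05 was reached by 623 genes (5.37%), 289 of them higher (2.49%) and 334 lower (2.88%) in the knockout. The 3 knockout libraries lay entirely above or below the 3 wild type libraries for 1602 genes (13.8%), 694 of them above (5.98%) and 908 below (7.82%).

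**Figure D2:**
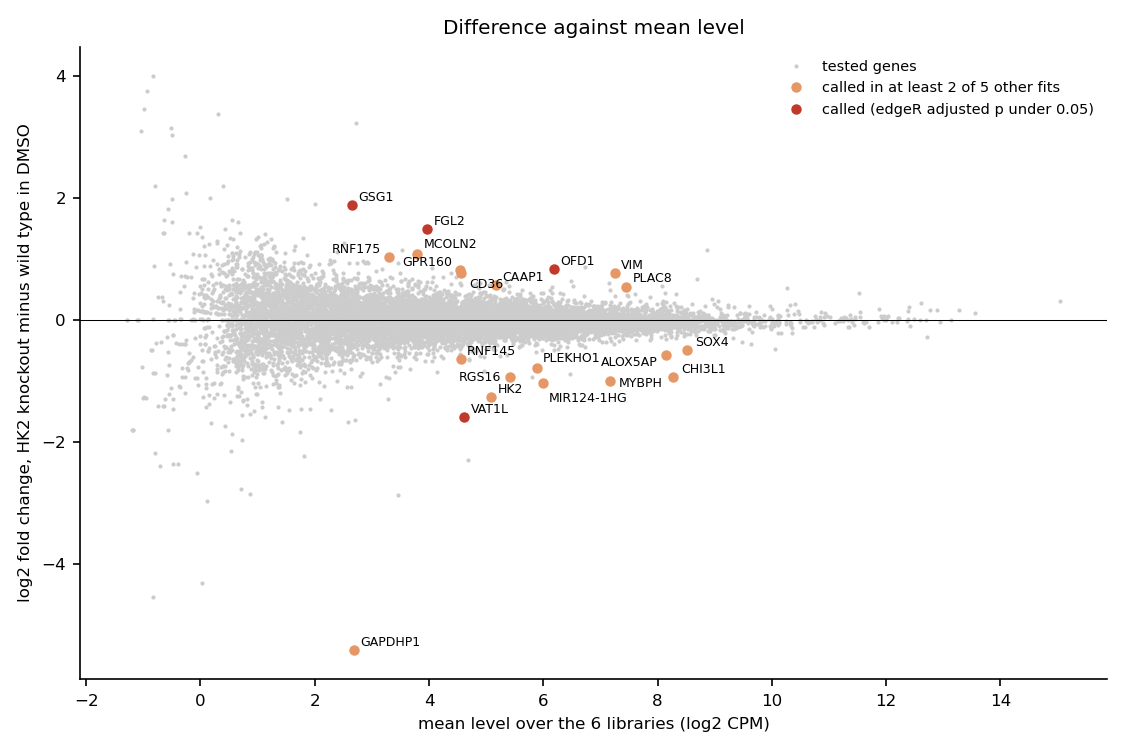
Difference between HK2 knockout and wild type in DMSO (log2 fold change) against the mean level (log2 CPM) for the genes tested. The 4 called genes and the 17 genes called in at least 2 of 5 other fits are named; GAPDHP1 has the largest fitted difference among those named, at -5.41, and comes from a pseudogene.

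Besides the 4 calls, 17 named genes, each averaging 5 CPM or more, were called in at least 2 of 5 other fits: the 2 groups alone, the 3 DMSO groups, DESeq2, replicate number as a block, and without wild type 6 h replicate 2. These fits called 0.16%, 0.12%, 0.192%, 0.189% and 0.102% of their genes, in that order. These genes, HK2 among them, were chosen after their values were seen, none is a call by the edgeR test above, and their values are a description. Of the 17, 7 were higher and 10 lower in the knockout. None of the 17 had overlapping libraries, where 13.8% of all genes tested had none. The 17 were chosen by their p in these same libraries, so the lack of overlap adds no support.

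On the higher side, CD36, the scavenger receptor that takes up fatty acids and oxidised lipoproteins, stood at 20.9, 16.1 and 16.6 CPM in wild type and at 30.8, 29.2 and 30.6 CPM in the knockout (0.76 ± 0.16, edgeR adjusted p = 0.0942). MCOLN2, a cation channel of endosomes and lysosomes, stood at 6.89, 13.6 and 7.96 CPM against 21.9, 18.0 and 19.8 CPM (1.07 ± 0.22). GPR160, an orphan receptor, stood at 16.9, 21.5 and 13.9 CPM against 31.7, 29.4 and 30.6 CPM (0.81 ± 0.18). In each of the 3 genes the knockout libraries were closer to one another than the wild type libraries.

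VIM, the intermediate filament protein vimentin, stood at 120.5, 114 and 118 CPM in wild type and at 194, 234 and 169 CPM in the knockout (0.76 ± 0.27). PLAC8, a small cysteine-rich protein of myeloid cells, stood at 143, 164 and 129 CPM against 220.3, 209 and 206 CPM (0.54 ± 0.13). The other members on the higher side were RNF175, a RING finger protein (1.02 ± 0.22), and CAAP1, a regulator of caspase activity (0.57 ± 0.12).

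On the lower side, CHI3L1, a secreted chitinase-like glycoprotein of macrophages and neutrophils, stood at 434, 317 and 545 CPM in wild type and at 277, 194 and 209 CPM in the knockout (-0.93 ± 0.22, edgeR adjusted p = 0.160). ALOX5AP, which presents arachidonic acid to 5-lipoxygenase in leukotriene synthesis, stood at 360.2, 275 and 414 CPM against 271, 204 and 228 CPM (-0.58 ± 0.13). RGS16, which shortens signalling through G proteins, stood at 58.9, 47.8 and 69.5 CPM against 33.9, 26.5 and 31.9 CPM (-0.94 ± 0.19). In all 3 genes replicate 2 was the lowest library of both genotypes.

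SOX4, a transcription factor of progenitor cells, stood at 440.0, 443 and 416 CPM in wild type and at 297, 313 and 309 CPM in the knockout (-0.50 ± 0.11, edgeR adjusted p = 0.117). MYBPH, a relative of the myosin-binding proteins of muscle, stood at 205, 188 and 219 CPM against 108, 91.3 and 107 CPM (-0.9999 ± 0.22). For these 2 abundant transcripts the distance between the genotypes was several times the spread within either. The others on the lower side were PLEKHO1, a pleckstrin homology domain protein (-0.80 ± 0.17), RNF145 (-0.64 ± 0.13), a ubiquitin ligase of sterol metabolism, the host transcript MIR124-1HG (-1.04 ± 0.27) and GAPDHP1.

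GAPDHP1 is annotated as a processed pseudogene of the glycolytic enzyme GAPDH, and reads of near-identical copies can be divided between them, so its level is uncertain. It stood at 47.8, 25.5 and 37.5 CPM in wild type DMSO and at 1.79, 0.170 and 0.769 CPM in the HK2 knockout. It was also near 0 in the PGP knockout in DMSO (0.268, 0.212 and 0.878 CPM) and in wild type at 24 h (0.822, 0.198 and 0.583 CPM). At 6 h of ironomycin in wild type it stood at 0, 88.4 and 20.3 CPM, and in the PGP knockout at 24 h at 0, 58.1 and 0.194 CPM. The 3 wild type libraries at 6 h thus ranged from 0 to 88.4 CPM, and GAPDH itself was listed at only 9.79 ± 1.61 CPM in wild type and 8.93 ± 2.10 CPM in the knockout.

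The genotypes were also compared in a separate set of 6 libraries, wild type and HK2 knockout at 24 h of ironomycin, which shares no library with the DMSO comparison. HK2 stood at 36.4, 44.6 and 54.0 CPM in wild type and at 14.7, 16.9 and 22.2 CPM in the knockout there (-1.32 ± 0.29, edgeR adjusted p = 0.0963). In these libraries 10 of 11610 genes (0.0861%) were called. FGL2 was called in both sets: at 24 h it stood at 9.86, 6.74 and 10.1 CPM in wild type and at 32.0, 23.1 and 23.0 CPM in the knockout (1.54 ± 0.27, edgeR adjusted p = 0.0264). On leaving out any 1 of the 6 libraries at 24 h, 2 to 4 genes were called there and FGL2 was not among them, with a difference of 1.37 to 1.65 (edgeR adjusted p from 0.0561 to 0.220).

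GSG1 and VAT1L had the same sign at 24 h, at lower levels in both genotypes. GSG1 stood at 1.23, 1.79 and 1.56 CPM against 2.14, 4.79 and 3.83 CPM. VAT1L stood at 16.6, 16.7 and 19.8 CPM in wild type against 8.31, 7.28 and 12.8 CPM in the knockout. OFD1 stood at 42.9, 38.7 and 42.2 CPM against 53.2, 51.0 and 40.5 CPM, where the groups overlapped and the difference was 0.22 ± 0.14 (unadjusted p = 0.129).

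Of the 623 genes with an unadjusted p under 0.05 in DMSO, 472 (75.8%) had the same sign at 24 h, against 57.5% of all genes tested. An unadjusted p under 0.05 in both sets was reached by 131 genes, of which 58 were higher in both, 71 lower in both, and 2 of opposite sign. At 24 h 5.64% of all genes had such a p. Both p-values of a gene come from the same fit and share its estimate of the spread, so they are not independent. Of the 17 genes described above, 15 had the same sign at 24 h, and 14 of these had an unadjusted p under 0.05 there; the exceptions in sign were CAAP1 (-0.07 at 24 h) and GAPDHP1 (0.64). The other genes called at 24 h were CHI3L1 (-1.60), DENND1B (1.28), PLAC8 (0.79), CRYBG1 (0.90), the fructose transporter SLC2A5 (-0.94), the chemokine CCL2 (-2.22), the adhesion molecule CADM1 (-0.85), the myeloid transcription factor MEF2C (-0.55) and the secretory kinase FAM20C (-0.95). In DMSO their differences were -0.93, 0.61, 0.54, 0.13, -0.63, -1.45, -0.67, -0.32 and -0.77, in the same order and each with the same sign.

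Whether the genotype difference itself changed between DMSO and 24 h was tested by an interaction term. It gave 0 calls by edgeR, with 277 genes (2.39%) at an unadjusted p under 0.05. The smallest unadjusted p among the 4 calls and the 17 further genes was 0.00159, for CAAP1. For OFD1 the interaction was -0.61 ± 0.20 (edgeR unadjusted p = 0.00487). A p that misses the threshold does not show that the differences were alike.

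**Figure D3:**
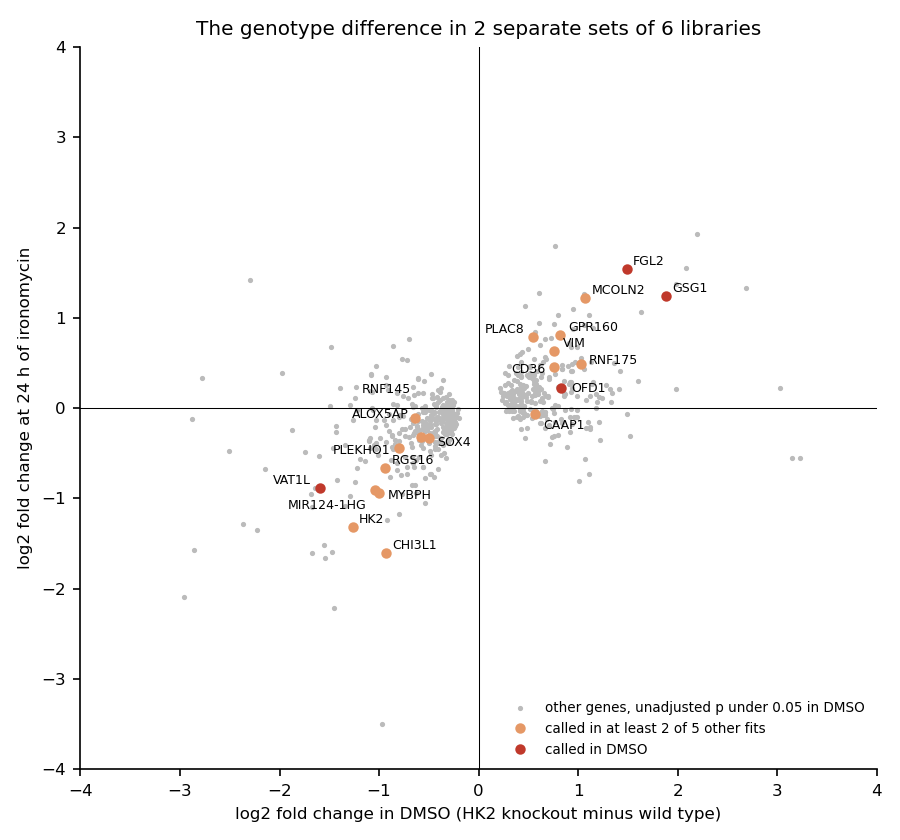
Genotype difference (log2 fold change, HK2 knockout minus wild type) at 24 h of ironomycin against that in DMSO, for genes with an unadjusted p under 0.05 in DMSO and the named genes; 3 genes lie outside the axes. FGL2, GSG1, MCOLN2, HK2 and CHI3L1 lie far from 0 in both sets, and OFD1 and CAAP1 lie at 0.22 and -0.07 at 24 h.

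The PGP knockout in DMSO is compared with the same 3 wild type libraries, so its differences from wild type are not independent of those of the HK2 knockout and stand here side by side. FGL2 stood at 24.1, 16.8 and 15.6 CPM in the PGP knockout, a difference of 1.01 against 1.49 in the HK2 knockout. GSG1 stood at 6.42, 14.9 and 11.4 CPM (1.83 against 1.88), and VAT1L at 22.2, 18.3 and 24.4 CPM (-0.97 against -1.60). OFD1 stood at 82.4, 71.4 and 66.3 CPM (0.42 against 0.83). For all 4 genes, the PGP knockout libraries lay on the same side of wild type as those of the HK2 knockout.

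Among the 17 further genes, RGS16 (-0.87 in the PGP knockout against -0.94 in the HK2 knockout), ALOX5AP (-0.50 against -0.58), CHI3L1 (-0.69 against -0.93) and MCOLN2 (0.83 against 1.07) lay on the same side of wild type in both knockouts. SOX4 (-0.01 against -0.50), PLEKHO1 (0.02 against -0.80) and MIR124-1HG (-0.00 against -1.04) had values near 0 in the PGP knockout, and VIM (-0.34 against 0.76) had the opposite sign. By the direct comparison of the HK2 with the PGP knockout, 0 genes were called by edgeR and 1153 (9.93%) had an unadjusted p under 0.05, and without wild type 6 h replicate 2 the count of calls was 2. The unadjusted p of that comparison was 0.0054 for OFD1, 0.047 for VAT1L, 0.075 for FGL2 and 0.85 for GSG1. The PGP knockout had 0 calls against wild type in DMSO by edgeR, with 664 genes (5.72%) at an unadjusted p under 0.05.

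Gene lists around glucose metabolism, mitochondria, stress, growth and lineage held 645 tested genes in 40 lists, and none of these genes was called. An unadjusted p under 0.05 was reached by 61 of them (9.46%), against 5.37% of all genes. The values of the lists are therefore given as medians, counts and ranges.

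In 5 lists of glucose use, 4 of 65 genes (6.15%) had an unadjusted p under 0.05, a share near the 5.37% of all genes. Of 13 tested glycolytic enzymes below hexokinase, 5 had a positive difference, the median was -0.12, and 1 had an unadjusted p under 0.05. ENO1, an enolase, stood at 2703 ± 97.6 CPM in wild type and 2492 ± 150 CPM in the knockout, and the aldolase ALDOA at 863 ± 18.1 and 884 ± 37.0 CPM. The exception was the muscle enolase ENO3, at 5.01, 5.22 and 5.81 CPM in wild type against 3.13, 2.89 and 3.65 CPM (-0.74 ± 0.30, edgeR adjusted p = 0.846). Of 14 regulators of glycolysis none had an unadjusted p under 0.05.

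Of 9 transporters of glucose and lactate and lactate dehydrogenases, 2 had a positive difference and the median was -0.19. SLC2A3, a high-affinity glucose transporter, stood at 17.1, 17.3 and 18.9 CPM in wild type and at 12.7, 14.3 and 14.0 CPM in the knockout (-0.38 ± 0.16), without overlap; at 24 h its difference was -0.52. LDHA stood at 864 ± 70.8 and 751 ± 48.1 CPM. In the pentose phosphate pathway 1 of 12 genes, the ribokinase RBKS, had an unadjusted p under 0.05 (0.51 ± 0.20), while TALDO1 and TKT, of the non-oxidative branch, had differences of -0.11 and -0.07. Among 17 genes of glycogen, hexosamines and other fates of glucose 6-phosphate, 1 did, the glucosamine 6-phosphate deaminase GNPDA1 (0.35 ± 0.12).

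Of the glucose-sensing list, 2 arrestins had an unadjusted p under 0.05, with opposite signs. ARRDC4, which promotes removal of glucose transporters from the cell surface, stood at 4.59, 3.55 and 12.9 CPM in wild type and at 1.12, 1.53 and 1.92 CPM in the knockout (-2.22 ± 0.46, edgeR adjusted p = 0.0931), and at 24 h at 12.3, 7.74 and 8.36 against 2.85, 2.497 and 5.56 CPM (-1.35). The groups did not overlap in either set, and wild type replicate 3 was high in DMSO for ARRDC4 as it was for HK2. ARRDC3 had the opposite sign, at 0, 0.835 and 1.16 CPM against 1.12, 3.73 and 1.54 CPM (1.63 ± 0.63, edgeR adjusted p = 0.841). TXNIP was listed at 0 in all 21 libraries, so no value can be given. MLXIP and MLX, the MondoA pair, had differences of -0.13 and 0.10.

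Nuclear transcripts of the respiratory chain had medians near 0. The 35 tested complex I subunits had a median of -0.02 and the 34 nuclear subunits of complexes III to V one of -0.04, with 6 of the 34 positive. Without overlap, 0 of the 34 lay above and 7 below wild type, and of the 35, 2 above and 5 below (5.98% and 7.82% of all genes did). At 24 h 29 of the 34 were positive, with a median of 0.07. In DMSO all 13 mRNAs of the mitochondrial chromosome had a positive difference, with a median of 0.16. The spread among the wild type libraries exceeded that median: relative to the wild type mean, the median of these 13 mRNAs was -0.18, -0.11 and 0.25 in the wild type libraries and 0.24, 0.04 and 0.31 in the knockout libraries. MT-ATP8, a subunit of the ATP synthase, had the largest difference of the 13, at 1102, 1035 and 933 CPM against 1497, 1505 and 1393 CPM (0.52 ± 0.25, edgeR adjusted p = 0.907). At 24 h all 13 were again positive, with a median of 0.42 and 8 at an unadjusted p under 0.05, which was 0.25 and 1 of 13 without either wild type replicate 1 or knockout replicate 3 of that time. In the PGP knockout in DMSO all 13 were positive against the same wild type libraries, with a median of 0.29. None was called in any of these comparisons, while 1 was called in DMSO when the 2 groups were fitted alone. VDAC1, the docking channel, stood at 510.2 ± 14.7 and 476 ± 11.9 CPM. The 30 genes of pyruvate entry and the tricarboxylic acid cycle had a median of -0.02.

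**Figure D4:**
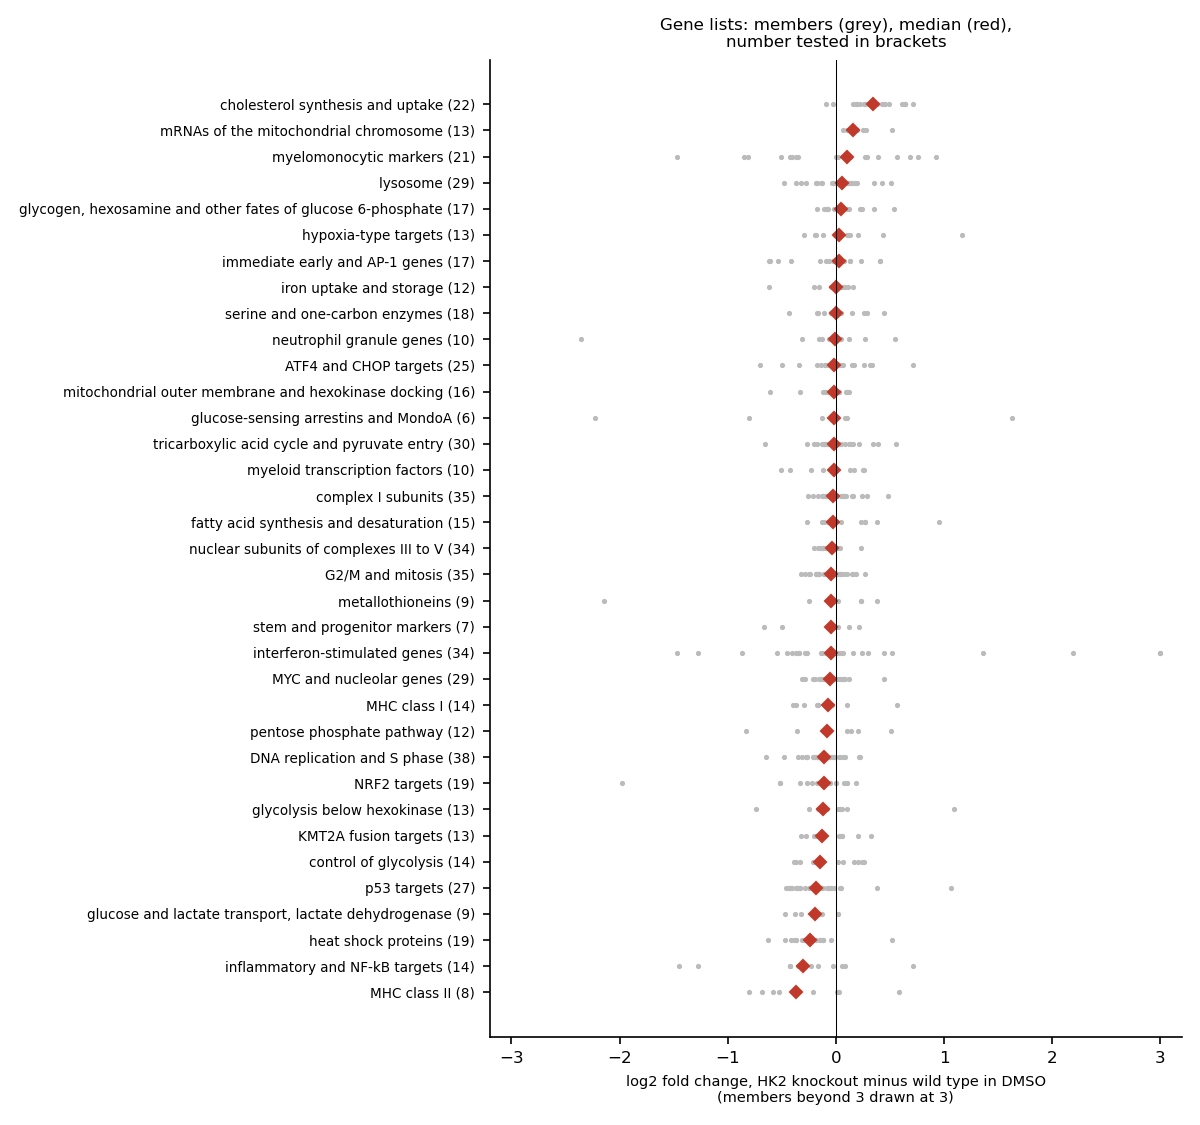
Difference between HK2 knockout and wild type in DMSO (log2 fold change) of each tested member (grey) of the lists with at least 5 tested members, with the list median (red), sorted by median. Cholesterol synthesis and uptake has the highest median, at 0.34, and MHC class II the lowest, at -0.37.

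Genes of cholesterol synthesis and uptake had the highest median of the lists drawn. Of 22 tested, 20 had a positive difference, the median was 0.34 against -0.01 over all genes, 9 lay above wild type without overlap (5.98% of all genes did), and 5 had an unadjusted p under 0.05, none being a call. FDFT1, the squalene synthase, stood at 170.0, 164 and 174 CPM in wild type and at 245, 189 and 249 CPM in the knockout (0.43 ± 0.12, edgeR adjusted p = 0.392). SQLE, the squalene epoxidase, stood at 61.8, 57.2 and 57.1 CPM against 103, 63.2 and 82.1 CPM (0.49 ± 0.16). LSS, MSMO1 and SC5D, later enzymes of the pathway, had differences of 0.64 each. In all 5 genes except FDFT1 replicate 1 was the highest knockout library, and in all 5 replicate 2 was the lowest.

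The size of the cholesterol difference varied between knockout libraries. The list median relative to the wild type mean was 0.73, 0.08 and 0.32 in knockout replicates 1, 2 and 3, and 0.04, -0.00 and -0.05 in the wild type libraries. Without knockout replicate 1 the median difference was 0.14. In PGP knockout replicates 1, 2 and 3 the list median relative to the wild type mean was 0.44, 0.15 and 0.28. The median difference of the PGP knockout against the same wild type libraries was 0.27, with 20 of 22 genes positive. There 9 of the 22 had an unadjusted p under 0.05 (5.72% of all genes did). At 24 h the median difference was 0.07 between the HK2 knockout and wild type (-0.03 without knockout replicate 3 of that time). The levels of both genotypes were higher at 24 h: FDFT1 stood at 559 ± 57.8 and 588 ± 70.6 CPM.

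Heat shock proteins lay on the lower side. Of 19 tested genes 18 had a negative difference, with a median of -0.24, 9 lay below wild type without overlap (7.82% of all genes did), and 7 had an unadjusted p under 0.05. HSPH1, the HSP110 nucleotide exchange factor, stood at 961, 881 and 905 CPM in wild type and at 567, 747 and 782 CPM in the knockout (-0.39 ± 0.12, edgeR adjusted p = 0.455). HSPA5, the HSP70 chaperone of the endoplasmic reticulum, stood at 1239, 1360.1 and 1203 CPM against 721, 999 and 1017 CPM (-0.47 ± 0.17). HSP90AA1 stood at 7886, 7288 and 7185 CPM against 5328, 6531 and 6508 CPM (-0.28 ± 0.10). For these 3 genes knockout replicate 1 was the lowest of the 6 libraries, the same library that was highest in the cholesterol list. The list median was -0.31, -0.22 and -0.17 in the knockout libraries and 0.06, -0.05 and -0.02 in the wild type libraries. It was -0.20 without knockout replicate 1, -0.05 in the PGP knockout and -0.10 at 24 h (-0.03 without knockout replicate 3 of that time).

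**Figure D5:**
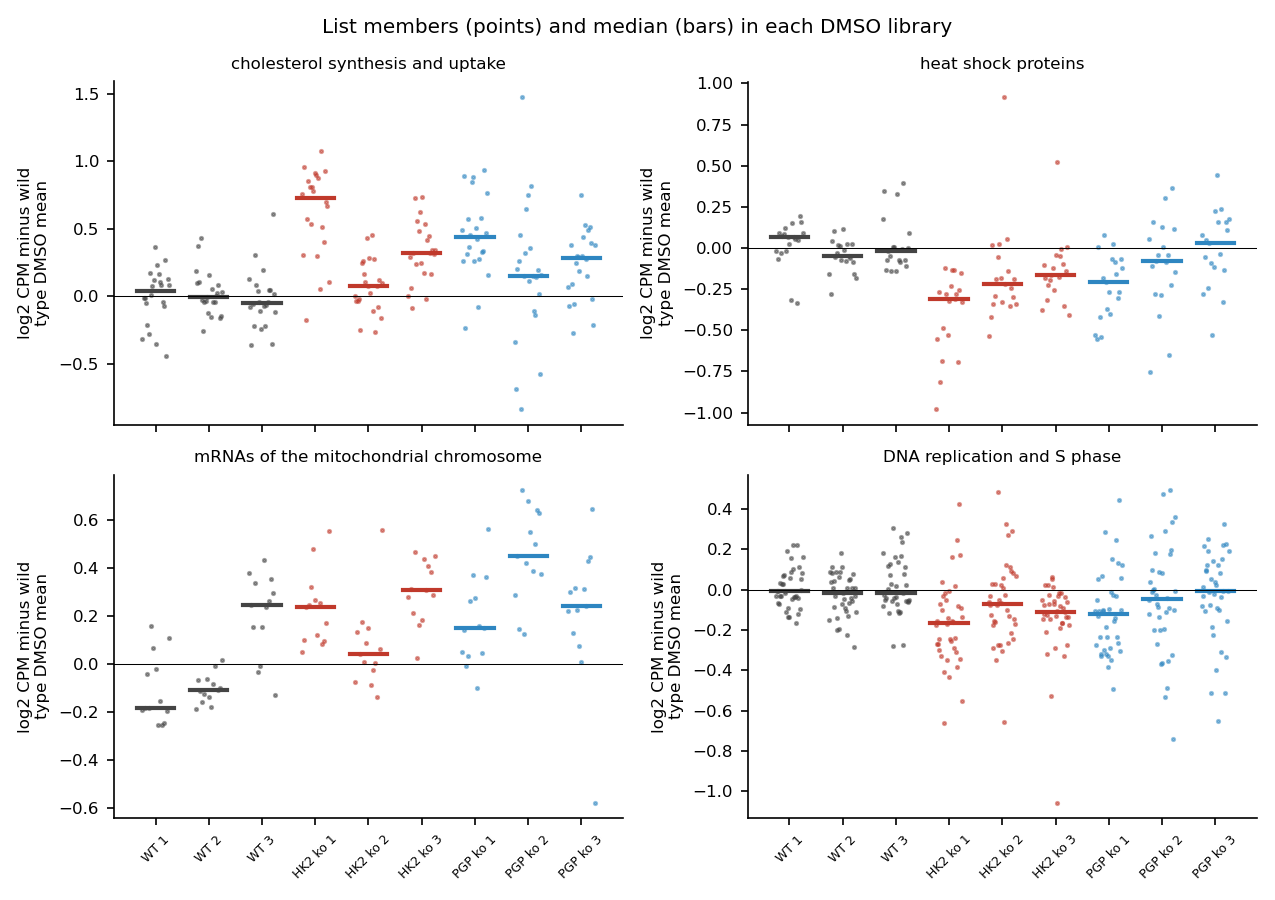
Members (points) and median (bars) of 4 lists in each DMSO library, as log2 CPM minus the wild type DMSO mean of the member; WT is wild type and ko is knockout. In the cholesterol panel the bars of the HK2 knockout lie at 0.73, 0.08 and 0.32, and in the heat shock panel at -0.31, -0.22 and -0.17.

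Among growth and stress lists, 12 of 38 DNA replication genes lay below wild type without overlap (7.82% of all genes did), the list median was -0.11, and 4 had an unadjusted p under 0.05. These were the polymerase subunit POLD1 (-0.65 ± 0.21), the GINS subunit GINS3 (-0.48 ± 0.17), the clamp loader RFC5 (-0.35 ± 0.14) and the helicase subunit MCM7 (-0.27 ± 0.11). MCM7 stood at 385 ± 9.88 CPM in wild type and 320.1 ± 10.8 CPM in the knockout. The median of the replication list was -0.07 in the PGP knockout in DMSO. At 24 h it was -0.06, with 12 of 38 genes positive. The edgeR unadjusted p at 24 h was 0.240 for POLD1, 0.694 for GINS3, 0.134 for RFC5 and 0.883 for MCM7. In DMSO the 35 mitotic genes had a median of -0.04, and TOP2A, a topoisomerase of dividing cells, a difference of 0.01.

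Of 27 targets of p53, 4 had a positive difference, the median was -0.18 and 3 had an unadjusted p under 0.05. CDKN1A, the cyclin-dependent kinase inhibitor p21, stood at 172, 149.6 and 144 CPM in wild type and at 132, 119.5 and 111 CPM in the knockout (-0.36 ± 0.15, edgeR adjusted p = 0.848). None of 25 targets of ATF4 and CHOP and none of 34 interferon-stimulated genes had an unadjusted p under 0.05 in DMSO. At 24 h the interferon-stimulated genes differed in 1 direction, with 0 of 34 positive, a median of -0.68 and 15 at an unadjusted p under 0.05 (5.64% of all genes were at 24 h), beside a median of -0.05 in DMSO. Wild type replicate 1 stood apart there: relative to the wild type DMSO mean, the list median was 3.32, 2.40 and 2.43 in the wild type libraries at 24 h and 2.16, 1.98 and 2.21 in the knockout libraries. Without that library the median difference was -0.34, with 3 of 34 positive and 1 at an unadjusted p under 0.05. None of them was called at 24 h, and the change of the list between DMSO and 24 h was not tested.

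Of the lists of immune and metabolic function, MHC class II had 3 of 8 genes positive and a median of -0.37, which was -0.02 without wild type replicate 1. CIITA, the coactivator that switches on class II genes, stood at 8.35, 6.05 and 4.98 CPM in wild type and at 4.02, 4.92 and 2.88 CPM in the knockout (-0.68 ± 0.31). The 14 inflammatory and NF-kB targets had 3 positive members and a median of -0.31, with CCL2, a monocyte chemokine, at 5.22, 2.92 and 9.79 CPM in wild type against 1.34, 3.06 and 2.11 CPM in the knockout, so that the groups overlapped. Among 19 target genes of NRF2, a transcription factor of antioxidant defence, 4 were positive, the median was -0.11, and the quinone reductase NQO1 (-0.52 ± 0.18) and the peroxiredoxin PRDX1 (-0.27 ± 0.09) had an unadjusted p under 0.05, as did the heme oxygenase HMOX1 (-1.97 ± 0.92), which stood at 1.25, 2.30 and 4.64 against 0.223, 0.340 and 1.54 CPM with overlap.

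Of 29 lysosomal genes 17 were positive, with the cathepsins CTSH (-0.48 ± 0.16), CTSB (-0.27 ± 0.11) and CTSA (-0.32 ± 0.15) and the hexosaminidase subunit HEXA (0.35 ± 0.13) at an unadjusted p under 0.05. Of 15 genes of fatty acid synthesis, PNPLA3, a lipid droplet hydrolase, stood at 4.59, 3.55 and 2.16 CPM in wild type against 8.26, 5.09 and 6.54 CPM in the knockout (0.96 ± 0.27), without overlap, while FASN, the fatty acid synthase, had a difference of -0.03. Iron uptake and storage, 12 genes with a median of -0.00, had no member at an unadjusted p under 0.05, and the transferrin receptor TFRC had a difference of 0.08. None of these genes was called.

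The markers of cell types were summed per library. In a bulk sample fewer cells of a type and less RNA per cell cannot be told apart. The summed level of 31 myelomonocytic markers, of which CD68, FCGR3A, CD163, MRC1, VCAN, FCN1 and SIGLEC1 were at 0, was 391 to 420 CPM in wild type and 421 to 467 CPM in the knockout. Of the 21 tested, 12 had a positive difference, and the median was 0.10. Besides CD36, the bacterial lipoprotein receptor TLR2 stood at 25.1, 20.7 and 21.4 CPM in wild type against 34.4, 35.1 and 29.6 CPM in the knockout (0.56 ± 0.18). The antigen-presenting molecule CD1D had the opposite sign (-1.47 ± 0.46), as did ITGAX (-0.81) and CD86 (-0.85). Neutrophil granule genes (20, with 5 at 0) summed to 4203 to 4858 CPM in wild type and 4156 to 5818 CPM in the knockout. Of the 10 tested, 5 had a positive difference, and the median was -0.01. ELANE, the neutrophil elastase, stood at 259, 234 and 185 against 435, 290.5 and 266 CPM, while MPO (-0.06) and PRTN3 (-0.13) had negative differences.

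The 16 stem and progenitor markers, of which PROM1, THY1, SPINK2 and MECOM were at 0, summed to 680 to 724 CPM in wild type and 563 to 607 CPM in the knockout. SOX4, described above, was the most abundant of them, and the other 15 summed to 265 to 282 CPM in wild type and 266 to 294 CPM in the knockout, which overlap. The B-lymphoid list (21 genes, 8 at 0) summed to 247 to 277 CPM in wild type and 246 to 278 CPM in the knockout. One of its low members, the B-lineage factor EBF1, had 26 counts in wild type and 3 in the knockout, a ratio of 0.115 (exact 95% interval 0.0223 to 0.376, for counting error only; edgeR adjusted p = 0.342), and stood at 6.98, 3.77 and 4.86 CPM against 1.19, 1.25 and 1.15 CPM at 24 h. T and NK cell markers (19 genes, 9 at 0) summed to 141 to 168 and 151 to 164 CPM, with NCAM1 and CD4 the most abundant of those tested. Erythroid and megakaryocytic markers (19 genes, 9 at 0) summed to 11.7 to 12.9 and 11.8 to 14.6 CPM. Epithelial, fibroblast and endothelial markers (16 genes, 10 at 0) summed to 4.64 to 6.89 and 4.69 to 8.66 CPM. The part of these markers in the differences above was not tested.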

How the data were processed

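Total RNA was prepared with the Qiagen RNeasy kit and libraries with the Lexogen QuantSeq 3′ kit, per the labels' protocols. Per the submitters' processing notes, bcl2fastq 2.20.0.422, HISAT2, HTSeq and hg19 were used; the strand setting is not given in the sources used here, which leaves antisense and overlapping genes uncertain. The deposited table holds unnormalised counts of reads by Ensembl gene, and 51854 of 54042 identifiers matched a symbol.

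Counts were fitted in edgeR 4.0.16 (R 4.3.3) after TMM scaling and a filterByExpr filter (count of 10, total of 15, by group), with 1 quasi-likelihood fit of all 21 libraries in 7 groups (common biological coefficient of variation 0.149). Alternatives were RLE, no filter, DESeq2 1.42.0, fits of the 2 or 3 DMSO groups, robust and legacy settings, the replicate block and each library left out; leaving out 24 h libraries and SOX4 was added after the data were seen. Same-numbered libraries deviated together at correlations of 0.205, 0.0291 and 0.161, and those of other numbers at -0.206 to 0.0757. The sample numbers in the column names run by replicate number, each covering all genotypes, but no label says what the replicate number marks. The main fit therefore did not take same-numbered libraries as pairs, and the replicate block is an alternative. With that block 22 genes were called in place of 4, HK2 among them (edgeR adjusted p = 0.0175). The pipeline was tested on simulated data.

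Named genes were the hexokinases, PGP, all calls of at least 1 CPM, the 2 list members of highest mean where no member was called (not all are printed), and, chosen after their values were seen, genes called in at least 2 of 5 other fits and list members with an unadjusted p under 0.05. Y-linked genes and XIST were left out. One gene that the rule would name is not reported here. The comparison and the lists were chosen with earlier results of these data known. Promoter sequences are RefSeq's.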

Additional observations from a re-analysis of the deposited data

How the results depend on the processing

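The 4 calls in DMSO became 67 with no low-count filter, 23 in DESeq2, 17 with the 2 groups alone, 13 with the 3 DMSO groups, 22 with the replicate block, 1 with edgeR's legacy setting, 0 to 8 on leaving out any 1 of the 6 libraries and 12 without wild type 6 h replicate 2; RLE gave 4 and the robust setting 3. The HK2 difference was a call with no filter (-1.28, adjusted p = 1.4e-09), in DESeq2 (-1.26, 0.0183), with the 2 groups alone (-1.26, 0.00894), the 3 DMSO groups (-1.26, 0.00464), the replicate block (-1.23, 0.0175) and without wild type 6 h replicate 2 (-1.27, 0.00505), and ranged from -1.40 to -1.01 on leaving out a library. The 10 calls at 24 h became 127 with no filter, 16 in DESeq2, 25 with the replicate block, 6 to 10 on leaving out one of the 6 DMSO libraries, 2 to 4 on leaving out one of the 6 libraries at 24 h (chosen after seeing the data) and 21 without wild type 6 h replicate 2. The interaction had 19 calls with no filter. The PGP knockout against wild type had 95 with no filter, 5 with the 3 DMSO groups and 3 with the replicate block; HK2 against PGP knockout had 156, 19 and 4, and 2 without wild type 6 h replicate 2. List members called were 11 with no filter, 4 in DESeq2, 3 with the 2 groups alone, 1 with the 3 DMSO groups, 3 with the replicate block, and 0 to 1 on leaving out a library. The cause of these changes was not tested. Of 600 recomputed list medians 26 moved by more than the replicate spread. The replicate number is only a shared number here: 5 of the 6 libraries correlated best with their own number, and knockout replicate 2 with wild type replicate 3 (0.0757). Differences of HK3 and HKDC1 were not detectable at this depth.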
